A study of Mus musculus with 8 samples.

Results

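The genes described here are 10 nuclear genes that govern how much mitochondrial mass a cell makes and how strongly its mitochondrial DNA (mtDNA) is transcribed: the coactivators Ppargc1a, Ppargc1b and Pprc1, the nuclear transcription factors Esrra, Nrf1 and Gabpa, and the mtDNA transcription proteins Tfam, Tfb1m, Tfb2m and Polrmt. They were chosen by symbol, and all 10 were found among the 18877 genes of the expression table. Of these, 9 had a mean of at least 10 normalized reads over the 8 libraries and were tested, and Tfb1m fell below that level.

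The study sequenced total RNA of activated muscle stem cells (ASCs), Pax7-lineage cells that leave quiescence when a muscle is damaged, in 4 wild-type and 4 mfn2-/- libraries. Mice of both groups carried a mito-Dendra2 allele, a fluorescent protein addressed to mitochondria, switched on by the tamoxifen-dependent Pax7-Cre(ERT2), and the mfn2-/- mice also carried floxed Mfn2, the gene of an outer membrane fusion protein, which the same driver deletes. Both groups were given 75 mg/kg tamoxifen on 5 days, then 50 µL of 1.2% BaCl2 in the tibialis anterior muscle 2 days later, and CD34-, Dendra2+, DAPI- cells were sorted at 2 days post injury (dpi). Age and sex are not given in the labels, and these do not say whether the 4 libraries of a group came from separate animals, so p-values measure only the spread between these libraries. The deletion acts only in cells in which Pax7-Cre(ERT2) was active, while the injured tissue around them is not targeted.

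A cell enlarges its mitochondrial network through coactivators of the PGC-1 family, which bind no DNA themselves and are recruited by factors such as ERRα, NRF1 and GABP to nuclear genes of the respiratory chain and of mtDNA expression. Among the targets of those factors is TFAM, which packages and bends mtDNA so that the mitochondrial RNA polymerase POLRMT and the initiation factor TFB2M can start transcription on it. TFB1M is a related protein that methylates the small mitochondrial ribosomal RNA. In muscle the system is best known for its response to exercise and for the increase in mitochondria as stem cells become fibers.

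The data in brief showed a higher level of Pprc1 in mfn2-/- ASCs, at 1.99 times the wild-type mean, as the only one of the 9 tested regulators past the threshold. That share is close to the 10.4% of all genes that passed, and the Pprc1 call was lost when any of several single libraries was left out. Tfam stood at 2.09 times the wild-type mean and Ppargc1b at 1.74 times, and neither passed the threshold over all genes. Ppargc1a, Esrra, Tfb2m and Polrmt had lower means in mfn2-/- ASCs with wide intervals. The 12S ribosomal RNA encoded by mtDNA, Rnr1, was 3.47-fold lower.

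Libraries held 1880464 (wild-type 1) to 7508215 (wild-type 4) reads, and the other shallow library was mfn2-/- 4 with 2269009. A normalized read is a read divided by the authors' size factor of its library, so that 1 read was worth 0.534 to 2.27 normalized reads. Mfn2 itself measured 229 ± 19.98 (SD, n = 4) normalized reads in the wild-type group against 126 ± 31.4 in the mfn2-/- group, with no overlap (log2 change -0.88, limma adjusted p = 0.0848), and the values do not separate transcripts that lack the deleted part. Each group held 2 libraries with and 2 without reads of Y-linked genes. In wild-type these were replicates 3 and 4 with and 1 and 2 without, and in mfn2-/- replicates 1 and 2 with and 3 and 4 without. Markers of ASCs were present in all libraries, with Pax7 at 662 ± 45.9 in wild-type and 715 ± 96.1 in mfn2-/- libraries. Myod1, Des and Sdc4 were the 3 of 10 ASC markers that passed the threshold, all higher. Of the 10, 6 had a positive and 4 a negative log2 change, with a median of 0.09. Together the 10 took 0.267% to 0.348% of the wild-type total and 0.673% to 0.950% of the mfn2-/- total. Fibroadipogenic markers made up 4.64% to 6.28% of wild-type and 0.144% to 0.247% of mfn2-/- libraries, with 10 of 12 lower, and tenocyte markers 0.954% to 1.62% against 0.00736% to 0.0105%, with 10 of 10 lower. Pdgfra, Lum, Pi16, Clec3b, Tnmd, Comp, Kera, Chad, Cilp2 and Col11a1 were at 0 in at least 1 mfn2-/- library and in no wild-type library. Of 7 mural markers tested Pdgfrb and Cspg4 were lower and Abcc9 higher (0.0538% to 0.0873% of the total against 0.0328% to 0.0441% for the list), and of 10 myofiber markers Myh1 and Myh4 were higher (0.0239% to 0.0716% against 0.0685% to 0.0943%). The endothelial, macrophage and glial lists had 0 of 8, 0 of 4 and 0 of 5 tested markers past the threshold in limma, edgeR and DESeq2 alike, with 0, 0 and 1 at an unadjusted p under 0.05 in limma. The part of these cells in the differences below was not tested. In these bulk libraries, fewer cells of a type and less RNA per cell cannot be told apart.

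Short stretches of sequence show where the promoters of the regulators carry the letters that their own upstream factors read, since NRF1 and GABP sites in these promoters are the textbook link from the nuclear factors to the mtDNA proteins. Windows from 250 bases before to 50 after the transcription start were taken from RefSeq (GRCm38.p6), and 9 of the 10 genes had an entry. The searches covered GCATGCGC and its reverse GCGCATGC, the core of the NRF1 site, and CCGGAAGT with its reverse ACTTCCGG, a GABP/ETS site. The match is in capitals and each stretch is 30 bases, written 5′ to 3′ on the strand of the gene:
Tfam (chr10:71238073-71238102, minus strand, GABP/ETS letters 47 bases before the start): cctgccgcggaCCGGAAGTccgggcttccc
Tfb2m (chr1:179546245-179546274, minus strand, NRF1 letters from base 14 after the start): ctaggtcgttcGCATGCGCcattcgtaatg
Esrra (chr19:6921824-6921853, minus strand, NRF1 letters 34 bases before the start): ccccctgttttGCATGCGCaggccggcccc
Polrmt (chr10:79746696-79746725, minus strand, NRF1 letters 133 bases before the start): agagtatttctGCGCATGCtctcttgccgc

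The NRF1 letters stood in 2.71% of 32851 such windows and the GABP/ETS letters in 3.89%, so these are uncommon runs of letters, and a match is a description and no proof of binding. By the GENCODE M21 annotation of GRCm38, the Tfam stretch lies within the bounds of its gene and the Tfb2m stretch spans the annotated start of its gene. Those of Esrra and Polrmt lie before the annotated start of their genes. The shorter ETS core CCGGAA or its reverse TTCCGG, which is contained in the longer run and was searched afterwards, stood in 14.9% of the windows, among them those of Tfam, Polrmt (42 bases before the start), Gabpa (92 bases) and Tfb1m (81 bases). The promoter of Pprc1 is shown because it was the regulator that passed the threshold, as the 150 bases that end at the RefSeq start. It held none of the longer runs, which says only that these letters are not in this window, and it lies within the annotated bounds of the Pprc1 gene:
Pprc1 (chr19:46056389-46056538, plus strand): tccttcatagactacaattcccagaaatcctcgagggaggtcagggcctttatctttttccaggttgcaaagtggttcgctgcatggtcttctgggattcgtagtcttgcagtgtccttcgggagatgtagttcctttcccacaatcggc

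The question for the coactivators was whether ASCs without Mfn2 differ in the factors that set mitochondrial gene programs. Pprc1 encodes PRC, the PGC-1 family member known as a growth-responsive coactivator of NRF1 (GENCODE M21, GRCm38 chromosome 19, 46044886 to 46072915, plus strand). The gene overlaps Ldb1 on the opposite strand, and whether reads were counted by strand is not given in the sources used here. Pprc1 measured 512, 292, 229 and 217 normalized reads in wild-type 1 to 4 and 667, 546, 704 and 569.9 in mfn2-/- 1 to 4. Every mfn2-/- value exceeded every wild-type value, and the shallow wild-type 1 was the wild-type library nearest to them. The means were 313 ± 137 and 622 ± 76.1 (SD, n = 4 per group), and limma gave a log2 change of 1.07 (95% interval 0.48 to 1.67, SE 0.28, adjusted p = 0.0265 over 11754 genes). Across all genes 10.4% passed this threshold, 3.99% of the genes higher and 6.36% lower (469 and 748 genes, or 844 and 632 with upper-quartile scaling), and Pprc1 ranked 826th by p. The log2 change was 1.43 between libraries with Y-linked reads and 0.71 between those without. The call was lost when any of wild-type 2, 3 or 4 or mfn2-/- 1 or 3 was left out, with limma adjusted p between 0.0545 and 0.0825, and without the mean-variance trend (adjusted p = 0.12). The log2 change itself stayed between 0.93 and 1.38 over 23 alternatives, and 17 of them passed.

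Ppargc1b encodes PGC-1β, a coactivator of genes of oxidative metabolism. It measured 38.7, 56.0, 64.5 and 42.2 normalized reads in wild-type 1 to 4 and 82.7, 70.3, 74.4 and 122.8 in mfn2-/- 1 to 4. The groups did not overlap, although the lowest mfn2-/- library and the highest wild-type library were close and mfn2-/- 4 stood above the rest. The means were 50.3 ± 12.0 and 87.5 ± 24.0, the exact two-sided permutation test over 70 arrangements gave p = 0.0286, which is the smallest it can give, and limma gave a log2 change of 0.78 (95% interval -0.33 to 1.89, adjusted p = 0.383). Groups without overlap were common, at 19.5% of all genes tested, and 2 of the 9 tested regulators, Pprc1 and Ppargc1b, were among them. The log2 change was 0.54 between libraries with Y-linked reads and 1.02 between those without, and no alternative took it past the threshold.

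Ppargc1a encodes PGC-1α, the coactivator that exercise and cold induce in muscle and brown fat (chromosome 5, 51454250 to 51567726, minus strand). It measured 91.0, 94.4, 81.7 and 66.2 normalized reads in wild-type 1 to 4 and 74.7, 84.5, 5.16 and 34.8 in mfn2-/- 1 to 4. The mfn2-/- libraries with Y-linked reads lay inside the wild-type range and those without lay below it. The lowest value, in mfn2-/- 3, rested on 7 reads, and that in mfn2-/- 4 on 19. The means were 83.3 ± 12.6 and 49.8 ± 36.7, with a log2 change of -1.27 (95% interval -3.02 to 0.48, limma adjusted p = 0.366). It was 0.11 between libraries with Y-linked reads and -2.66 between those without, and -0.44 with mfn2-/- 3 left out. On the recovered reads edgeR gave -0.64 and DESeq2 -0.74. The change without Y-linked reads minus that with them, tested as an interaction in limma, was -2.77 (adjusted p = 0.456) and did not pass. Ppargc1a and Ppargc1b thus had point estimates on opposite sides of 0, each with an interval that includes 0.

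**Figure D1:**
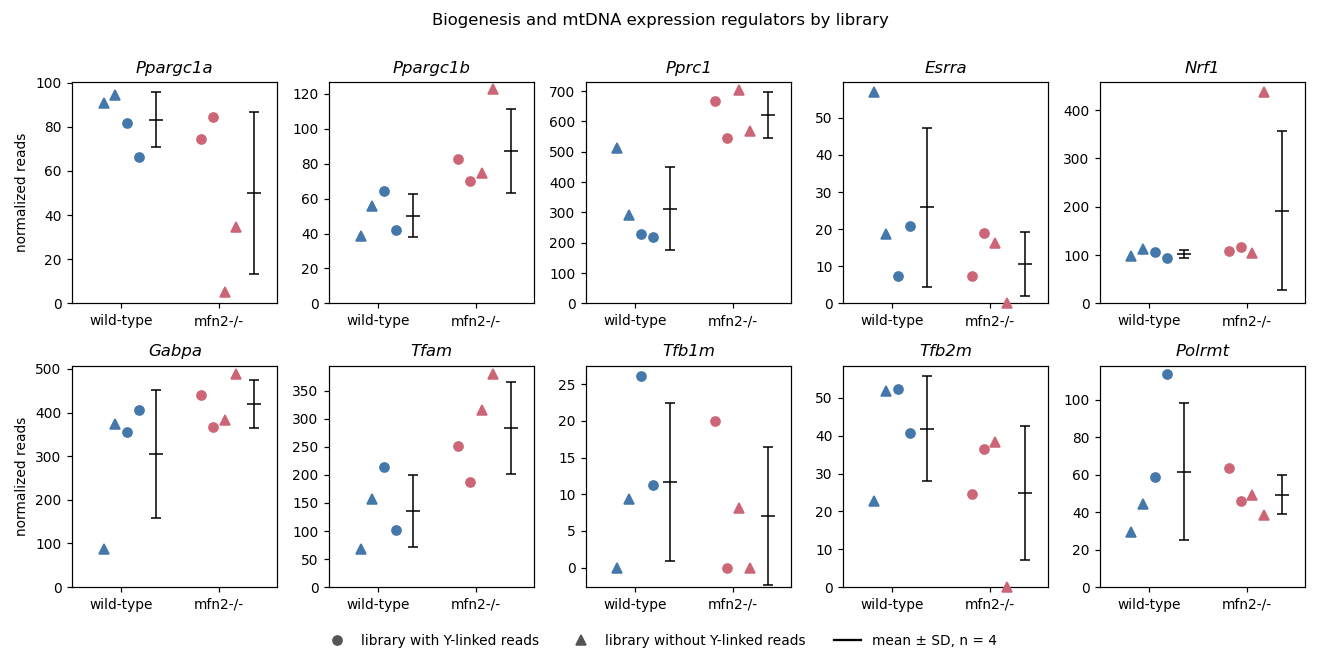
Normalized reads (vertical axis, linear, a separate scale for each gene) of the 10 regulators in each wild-type and mfn2-/- library, with circles for libraries with Y-linked reads, triangles for those without, and the mean ± SD of 4 libraries beside each group. The Pprc1 groups separate (217 to 512 against 546 to 704), Nrf1 has 1 library far above the others at 438, and Ppargc1a is low in the mfn2-/- libraries without Y-linked reads (5.16 and 34.8).

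Among the nuclear factors no member passed the threshold, and in each the mean followed 1 or 2 libraries. Nrf1 encodes nuclear respiratory factor 1, which drives nuclear genes of the respiratory chain and of mtDNA transcription (chromosome 6, 30047988 to 30153458, plus strand). It measured 97.8, 113, 105 and 93.5 normalized reads in wild-type 1 to 4 and 107, 117, 105 and 438 in mfn2-/- 1 to 4. All libraries but mfn2-/- 4 lay between 93.5 and 117, and mfn2-/- 4 had 239 reads of Nrf1, more than the deeper libraries. The means were 102 ± 8.61 and 192 ± 164, and the log2 change was 0.60 (95% interval -0.42 to 1.61, limma adjusted p = 0.470). Without mfn2-/- 4 it was 0.10, and edgeR over all libraries gave 0.90. Mfn2-/- 4 also had the fewest genes detected, 9646, and 6.03% of its total in the structural RNA Rn7sk against 0.365% to 1.54% in the other mfn2-/- libraries, and their part in the value was not tested.

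Gabpa encodes the DNA-binding subunit of GABP, also called NRF2 in the mitochondrial literature and unrelated to the antioxidant factor of that name (chromosome 16, 84834925 to 84863779, plus strand). It measured 86.4, 373, 354 and 407 normalized reads in wild-type 1 to 4 and 441, 367, 382 and 487 in mfn2-/- 1 to 4. Wild-type 1, the shallowest library, with 38 reads of Gabpa, was far below the others, and the rest of the 2 groups overlapped. The means were 305 ± 147 and 419 ± 55.5, with a log2 change of 0.67 (95% interval -0.23 to 1.57, limma adjusted p = 0.356), and it was 0.14 without wild-type 1. Gabpa overlaps Atp5j on the opposite strand, and whether reads were counted by strand is not given in the sources used here. The other regulators, except Tfam and Polrmt, also overlap an annotated gene on the opposite strand.

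Esrra encodes ERRα, the orphan nuclear receptor through which PGC-1 coactivators raise oxidative genes (chromosome 19, 6910977 to 6921813, minus strand). It was among the weakest of the 10, at 56.9, 18.7, 7.35 and 20.8 normalized reads in wild-type 1 to 4 and 7.33, 18.96, 16.2 and 0 in mfn2-/- 1 to 4. Wild-type 1 was the highest and mfn2-/- 4 had 0 reads, which in that library allows up to 5.50 normalized reads (3 reads, counting error only). The other 6 libraries lay between 7.33 and 20.8 with the groups mixed. The means were 25.9 ± 21.5 and 10.6 ± 8.65, and the log2 change of -1.54 had a 95% interval from -4.21 to 1.12 (limma adjusted p = 0.478). Without wild-type 1 and mfn2-/- 4 it was -0.11, and over all libraries it was -1.11 with edgeR and -1.24 with DESeq2.

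The mtDNA transcription proteins were led by Tfam, the packaging and initiation factor (chromosome 10, 71225464 to 71238280, minus strand). It measured 68.2, 158, 214 and 102 normalized reads in wild-type 1 to 4 and 252, 188, 315 and 379 in mfn2-/- 1 to 4. All mfn2-/- libraries but replicate 2 lay above every wild-type library, and mfn2-/- 2 lay below wild-type 3. The means were 135 ± 64.0 and 284 ± 82.3, and limma gave a log2 change of 1.14 (95% interval 0.30 to 1.98, SE 0.39), an unadjusted p of 0.0113 and an adjusted p of 0.0823. Tfam therefore missed the threshold, and by exact permutation its p was 0.0571. The log2 change was 0.56 between libraries with Y-linked reads and 1.73 between those without, it ran from 0.69 to 1.40 over 23 alternatives, and upper-quartile scaling was the 1 alternative that passed (limma adjusted p = 0.0361).

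Polrmt encodes the mitochondrial RNA polymerase (chromosome 10, 79736123 to 79746581, minus strand). It measured 29.6, 44.6, 58.8 and 113.8 normalized reads in wild-type 1 to 4 and 63.3, 45.8, 49.4 and 38.5 in mfn2-/- 1 to 4. Wild-type 4 was the highest of all, and the mfn2-/- libraries lay within the wild-type range. The means were 61.7 ± 36.7 and 49.3 ± 10.4, with a log2 change of -0.17 (95% interval -1.52 to 1.19, limma adjusted p = 0.895). Its sign turned with upper-quartile scaling (0.033), with quantile normalization (0.28) and without wild-type 4 (0.18), so no direction can be given.

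Tfb2m, the initiation factor that melts the mtDNA promoter (chromosome 1, 179528055 to 179546267, minus strand), measured 22.7, 51.9, 52.3 and 40.6 normalized reads in wild-type 1 to 4 and 24.7, 36.3, 38.3 and 0 in mfn2-/- 1 to 4. The 2 lowest libraries with reads were 1 of each group, and mfn2-/- 4 had 0 reads. The log2 change of -1.55 (95% interval -4.14 to 1.04, limma adjusted p = 0.461) shrank to -0.28 without mfn2-/- 4, and it was -0.63 with edgeR and -0.74 with DESeq2. Tfb1m, the rRNA methyltransferase (chromosome 17, 3519256 to 3557781, minus strand), measured 0, 9.33, 26.1 and 11.2 normalized reads in wild-type and 20.003, 0, 8.11 and 0 in mfn2-/- 1 to 4. With 3 of 8 libraries at 0 in both groups it was too weak to be tested with the rest, and an exact permutation test returned p = 0.486.

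The order of the levels was compared per kilobase of annotated exon (GENCODE M21 union of exons, which need not be the authors' annotation). In wild-type ASCs Gabpa (53.7 ± 25.9 normalized reads per kb) and Pprc1 (49.7 ± 21.8) stood highest, followed by Tfam (30.5 ± 14.4), Tfb2m (14.9 ± 4.94), Polrmt (13.2 ± 7.84), Ppargc1a (12.6 ± 1.91), Ppargc1b (12.6 ± 3.02), Nrf1 (9.96 ± 0.838), Esrra (5.91 ± 4.89) and Tfb1m (3.23 ± 3.00). Between neighbours in this order only the step from Tfam to Tfb2m exceeded the larger SD of the 2 genes. In mfn2-/- ASCs Pprc1 led at 99.0 ± 12.1 per kb, followed by Gabpa (73.7 ± 9.76) and Tfam (63.9 ± 18.5), then by Ppargc1b (21.9 ± 6.03), Nrf1 (18.6 ± 15.97), Polrmt (10.5 ± 2.23), Tfb2m (8.86 ± 6.28), Ppargc1a (7.55 ± 5.57), Esrra (2.42 ± 1.97) and Tfb1m (1.95 ± 2.62). There the steps from Pprc1 to Gabpa and from Tfam to Ppargc1b exceeded the larger SD. In both groups the same 3 genes, Pprc1, Gabpa and Tfam, held the top of the order.

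Read as a group, 1 of the 9 tested regulators (11.1%) passed the threshold, higher, and 8 did not, a share close to the 10.4% of all genes. Their changes had a median log2 of 0.60, with 5 positive and 4 negative. Over all 11754 genes the median was -0.16, with 5191 positive and 6563 negative. The median of the 9 is the change of Nrf1, which followed the single library mfn2-/- 4. Without mfn2-/- 4 the change of Nrf1 was 0.10 and the median over all genes -0.02. The normalized reads of all 10 genes summed to 1003 to 1211 in wild-type and 1473 to 2071 in mfn2-/- libraries, a sum set mostly by Pprc1, Gabpa and Tfam. The intervals of some genes were wide. Ppargc1a, Esrra and Tfb2m had SEs of 0.81, 1.24 and 1.20 on the log2 scale against a median of 0.63 over all genes tested, and differences of the size seen in them did not exceed the spread between libraries.

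**Figure D2:**
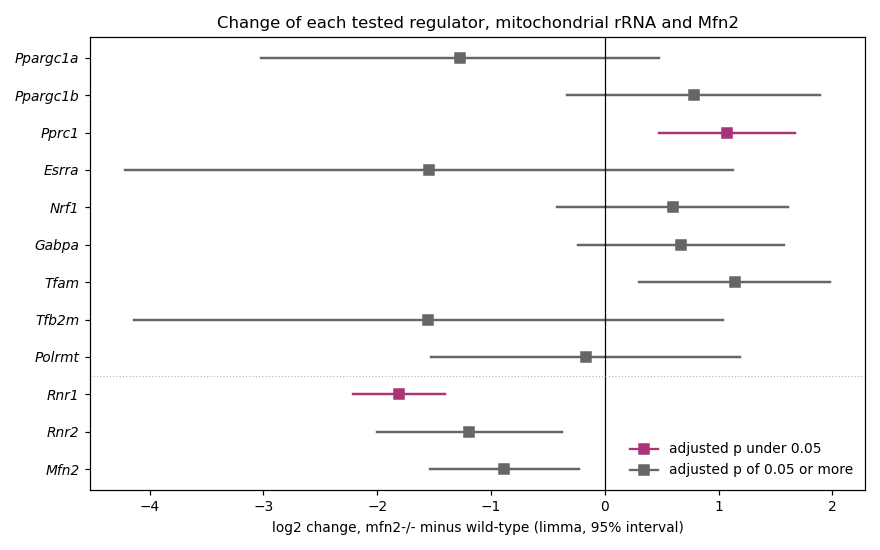
Log2 change, mfn2-/- minus wild-type, with its 95% interval from limma for the 9 tested regulators, the mitochondrial rRNAs and Mfn2, colored by whether the adjusted p was under 0.05. Pprc1 (1.07) and Rnr1 (-1.81) passed, and the intervals of Esrra and Tfb2m span more than those of the other genes.

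The change was also compared between the kinds of library. Interactions of genotype with the presence of Y-linked reads passed the threshold in 173 genes (1.47%) by limma and in 175 by edgeR, and 0 of the 9 regulators were among them by limma. Their lowest unadjusted p was 0.0677, in Ppargc1a, and the adjusted p ran from 0.456 in Ppargc1a to 0.866 in Ppargc1b. All of the tested regulators but Ppargc1a and Polrmt had the same sign in both kinds of library. Ppargc1a, Ppargc1b, Esrra, Nrf1, Gabpa, Tfam and Tfb2m had the larger change between libraries without Y-linked reads, the kind that holds the shallow libraries wild-type 1 and mfn2-/- 4. Pprc1 had the larger change in the kind with Y-linked reads, as did Polrmt, whose sign differed between the kinds (-0.59 with and 0.26 without). Inside each group the kind coincides with a pair of replicate numbers, so Y-linked expression and that pair cannot be told apart.

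**Figure D3:**
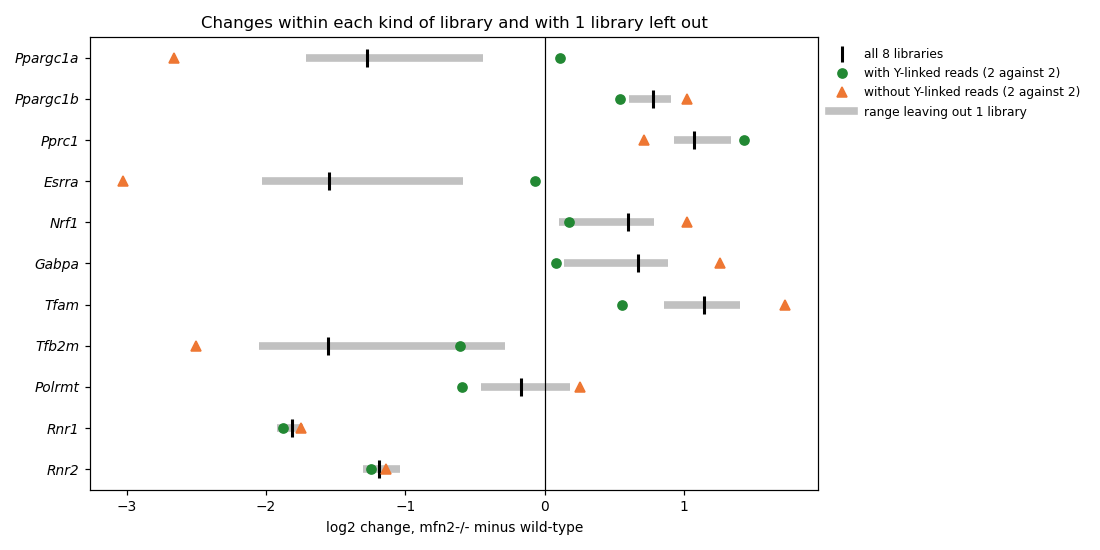
Log2 change, mfn2-/- minus wild-type, of the tested regulators and the mitochondrial rRNAs over all 8 libraries (black), between libraries with Y-linked reads (green circles), between those without (orange triangles), and the range with 1 library left out (gray bar). All genes shown but Ppargc1a and Polrmt keep their sign in all of these. Ppargc1a goes from 0.11 with to -2.66 without Y-linked reads, and Polrmt from -0.59 to 0.26.

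The products of mtDNA were also compared, since Polrmt, Tfam and Tfb2m make them. The table analysed here holds 6 genes of the mitochondrial genome, which are the rRNAs Rnr1 (12S) and Rnr2 (16S) and 4 tRNAs, and no mitochondrial protein gene. Rnr1 measured 10161, 8334, 9507 and 9076 normalized reads in wild-type 1 to 4 and 2348, 2734, 3346 and 2252 in mfn2-/- 1 to 4. The groups were far apart, from 8334 upward in wild-type and from 3346 downward in mfn2-/- libraries. The means were 9270 ± 767 and 2670 ± 497 (SD, n = 4 per group), and limma gave a log2 change of -1.81 (95% interval -2.21 to -1.41, SE 0.19, adjusted p = 4.06e-05). It was -1.87 between libraries with Y-linked reads and -1.74 between those without, and it passed in all 23 alternatives.

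Rnr2 measured 146368, 167772, 208449 and 232306 normalized reads in wild-type 1 to 4 and 95563, 90338, 86015 and 59168 in mfn2-/- 1 to 4. The groups did not overlap, and mfn2-/- 4 was the lowest. Rnr2 had a mean 2.28-fold lower in mfn2-/- libraries (188724 ± 38822 against 82771 ± 16212), with a log2 change of -1.19 (95% interval -2.001 to -0.38, limma adjusted p = 0.0633) that missed the threshold. It passed in 9 of 23 alternatives, among them edgeR on the recovered reads (adjusted p = 0.0243) and the limma fit with the kind of library as a term (adjusted p = 0.0108).

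Together the mitochondrial rRNAs took 4.80% ± 1.08 of all normalized reads in the wild-type group and 2.14% ± 0.442 in the mfn2-/- group, with ranges of 3.66% to 6.02% and 1.48% to 2.40%. The exact permutation test gave p = 0.0286, or 0.0514 after Benjamini-Hochberg adjustment over the 9 library measures compared. Without mfn2-/- 4 the difference moved from -2.67 to -2.45 percentage points, still with no overlap, at an exact permutation p of 0.0571. The shares were 5.70% and 2.34% in libraries with Y-linked reads and 3.91% and 1.94% in those without. With the fibroadipogenic and tenocyte markers taken out of the total they were 5.16% ± 1.22 and 2.14% ± 0.444, and since these markers hold more of the wild-type total, their removal raises the wild-type share whatever its source. The 4 tRNAs had 35, 39, 14 and 8 reads in wild-type 1 to 4 and 1, 0, 0 and 0 in mfn2-/- 1 to 4.

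The means of the 2 rRNAs, which are neighbours on 1 mtDNA transcript, were lower by unlike factors, 3.47 for Rnr1 and 2.28 for Rnr2. There were 20.5 ± 4.66 reads of Rnr2 for each read of Rnr1 in wild-type and 31.4 ± 7.02 in mfn2-/- libraries, with ranges of 14.4 to 25.6 and 25.7 to 40.7 that came close but did not overlap (exact permutation p = 0.0286, adjusted p = 0.0514 over the same 9 measures). This adjusted p missed 0.05. Among wild-type libraries the ratio rose with depth, from 14.4 in the shallowest, wild-type 1, to 25.6 in the deepest, wild-type 4. In mfn2-/- libraries it ran from 25.7 in replicate 3 to 40.7 in the deepest, replicate 1. The part of depth in the ratio was not tested. The nuclear rRNA precursor Rn45s went from 2.75% ± 0.694 to 3.69% ± 1.65 of the total with overlapping groups (exact permutation p = 0.4). In a total RNA kit the share of rRNA left in a library can also move with its removal, whose part in these values was not tested.

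**Figure D4:**
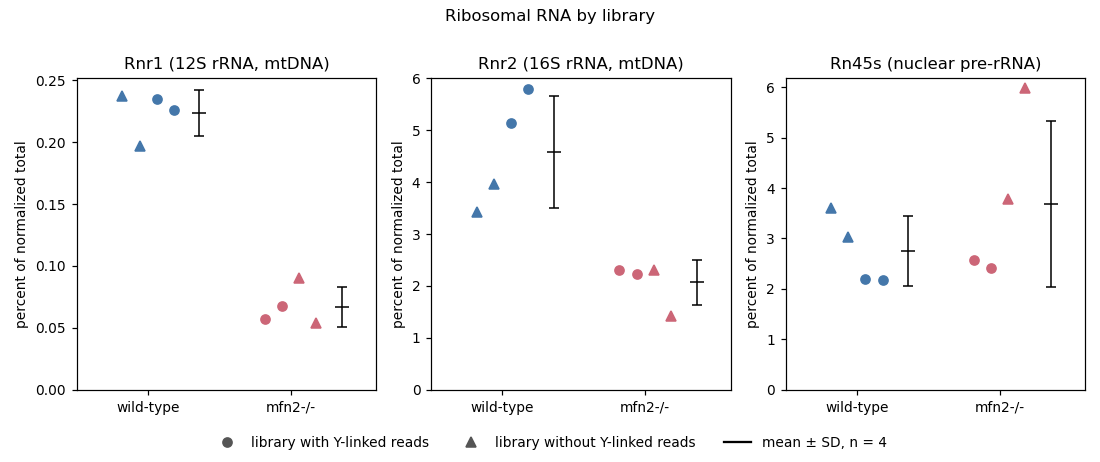
Share of the normalized total (percent, linear axes from 0) taken by Rnr1, Rnr2 and the nuclear pre-rRNA Rn45s in each library, with symbols by the presence of Y-linked reads and the mean ± SD of 4 libraries beside each group. The wild-type and mfn2-/- libraries separate for both mitochondrial rRNAs and overlap for Rn45s.

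The partners and regulators of PGC-1 were examined next, among them deacetylases, kinases and CREB coactivators that act on Ppargc1a. Of 21 listed genes 18 were tested, 1 passed, higher, and 17 did not, with a median log2 change of 0.42 and 14 of 18 positive. The gene that passed was Crtc2, a coactivator of CREB known to induce Ppargc1a, at 200.1, 108, 129 and 119 normalized reads in wild-type 1 to 4 and 300.04, 337, 194 and 370.2 in mfn2-/- 1 to 4. Only mfn2-/- 3 fell within the wild-type range. Its log2 change was 1.11 (SE 0.32, limma adjusted p = 0.0436), which passed in 13 of 23 alternatives and was lost without any of wild-type 2, 3 or 4 or mfn2-/- 1, 2 or 4, as well as with the replicate number as a block. Sirt1, the deacetylase that acts on PGC-1α and is named after its values were seen, stood at 306 ± 109.7 and 555.3 ± 108 normalized reads (log2 change 0.90, limma adjusted p = 0.0549), just short of the threshold, with overlapping groups. Its log2 change was 1.44 between libraries with Y-linked reads and 0.37 between those without. It passed in 10 of 23 alternatives, and the highest adjusted p among them was 0.171.

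No gene of the proteins that act beside POLRMT on mtDNA passed in limma, edgeR or DESeq2, and 1, Polg, had an unadjusted p under 0.05 in limma. Of the 7 accessory factors of mtDNA transcription listed, 6 were in the table and 5 were tested, with a median log2 change of -0.27. The most abundant, Mrpl12, a ribosomal protein that also binds POLRMT, had 79.8 ± 60.8 and 59.7 ± 25.8 normalized reads (log2 change -0.27, limma adjusted p = 0.825). The elongation factor gene Tefm, named after its values were seen, had 9.10, 20.7, 48.2 and 20.8 in wild-type 1 to 4 and 7.33, 7.11, 15.5 and 0 in mfn2-/- 1 to 4, with overlapping groups (log2 change -1.93, limma adjusted p = 0.347). Of 20 genes of mtDNA replication and maintenance 18 were tested and 0 passed, with a median of -0.23. Polg, the catalytic subunit of the mtDNA polymerase and the most abundant of them, had 327 ± 143 and 529 ± 91.6 normalized reads (log2 change 0.76, limma adjusted p = 0.112).

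The steps after transcription were represented by 3 lists. Of 22 genes of mitochondrial RNA processing and stability 20 were tested and 0 passed in limma (3 at an unadjusted p under 0.05), 1 in edgeR, Pnpt1, and 2 in DESeq2, Pnpt1 and Trmt10c (median -0.15). The most abundant was Pnpt1, which encodes the polynucleotide phosphorylase that takes part in mitochondrial RNA decay, at 3038, 1536, 423 and 307 in wild-type 1 to 4 and 212, 235, 326 and 302 in mfn2-/- 1 to 4. Wild-type 1 and 2, the wild-type libraries without Y-linked reads, were far above the rest, which ran from 212 to 423. The log2 change of -1.73 had a limma adjusted p of 0.0707, and it was -0.69 between libraries with Y-linked reads, where both wild-type values exceeded both mfn2-/- values, and -2.78 between those without. Trmt10c, a subunit of the complex that cuts tRNAs out of the mtDNA transcript and named after its values were seen, had 41.3 ± 8.30 and 121 ± 31.9 normalized reads with no overlap (log2 change 1.51, limma adjusted p = 0.071). Of 20 genes of mitochondrial RNA modification 16 were tested and 0 passed in limma (3 at an unadjusted p under 0.05), 0 in edgeR and 1 in DESeq2, Trub2 (median -0.48), and the most abundant, the RNA methyltransferase gene Nsun2, had 310.2 ± 112 and 399.8 ± 103 normalized reads (log2 change 0.39, limma adjusted p = 0.439).

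Of 29 mitochondrial translation factors 24 were tested, 1 passed, higher, and the median log2 change was -0.37 with 14 of 24 negative. The gene that passed was Mrrf, the mitochondrial ribosome recycling factor, at 127, 137, 48.2 and 87.6 normalized reads in wild-type 1 to 4 and 245, 273, 307 and 257 in mfn2-/- 1 to 4. Every mfn2-/- library was above every wild-type library, at 2.70 times the mean. Its log2 change was 1.53 (SE 0.37, limma adjusted p = 0.0195), and the call was lost without wild-type 4 or mfn2-/- 2 or 3.

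Textbook nuclear targets of NRF1 and GABP showed how genes downstream of the regulators stood. Of 24 listed genes 23 were tested, 1 passed, higher, and the median log2 change was 0.11, with 13 genes above and 10 below 0. The gene that passed was Hspe1, the mitochondrial HSP10 chaperonin, at 871, 592, 448 and 397 normalized reads in wild-type 1 to 4 and 1157, 1268, 847 and 1433 in mfn2-/- 1 to 4. Wild-type 1 overlapped with mfn2-/- 3, and the other libraries were separate. Its log2 change was 1.07 (SE 0.26, limma adjusted p = 0.0199), and the call was lost without wild-type 3 or 4 or mfn2-/- 2. Its partner Hspd1, which encodes HSP60, had 2929 ± 736 and 4913 ± 1176 normalized reads with no overlap (log2 change 0.75, limma adjusted p = 0.0586), and cytochrome c, Cycs, had 152 ± 37.1 and 267 ± 65.8 with no overlap (log2 change 0.82, limma adjusted p = 0.115), both named after their values were seen. The log2 change of Hspd1 was 1.35 between libraries with Y-linked reads and only 0.15 between those without. Its interaction with the kind of library passed (limma adjusted p = 0.0165). For Cycs the changes were 0.35 and 1.29, and the interaction did not pass (limma adjusted p = 0.518). Over these 7 lists 3 genes passed in the reported limma fit, all higher, and none was lower. They were 5.56% of the tested PGC-1 partners, 4.17% of the translation factors and 4.35% of the textbook targets, with none in the other lists. Over all genes 10.4% passed. Among the genes that edgeR or DESeq2 called, Pnpt1 and Trub2 had negative limma log2 changes (-1.73 and -1.44) and Trmt10c a positive one (1.51).

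**Figure D5:**
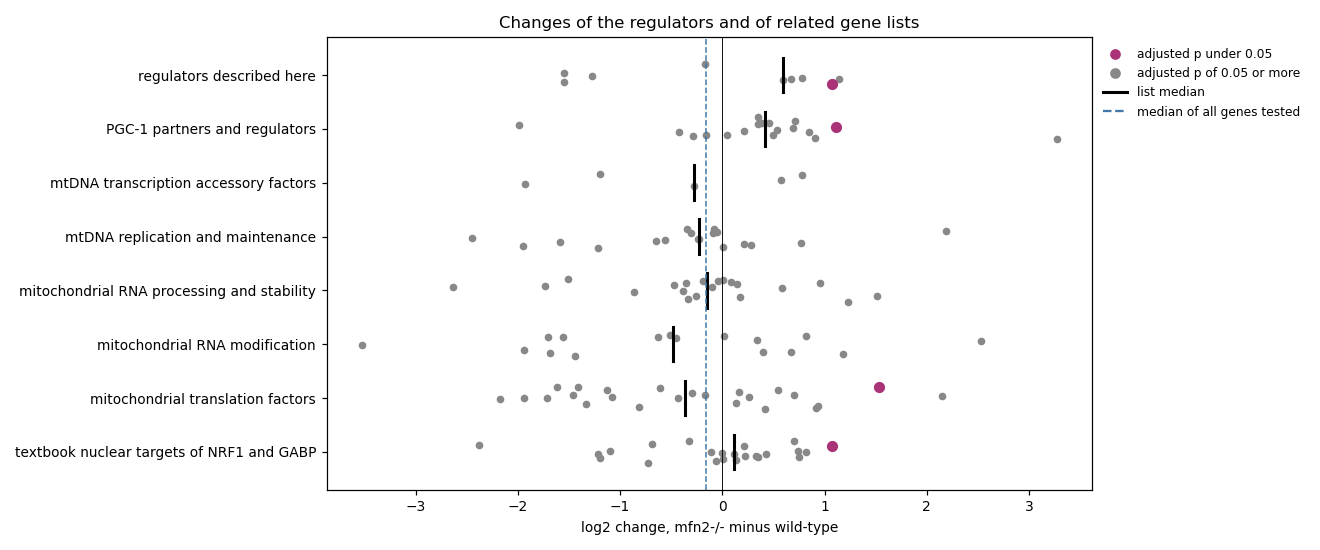
Log2 change, mfn2-/- minus wild-type, of each tested gene of the regulators and of 7 related lists (points, with those of adjusted p under 0.05 larger and colored), the list median (black bar) and the median of all genes tested (dashed line, -0.16). The 4 colored points are Pprc1, Crtc2, Mrrf and Hspe1, all above 0, and points lie on both sides of 0 in every list.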

How the data were processed

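RNA-seq of 8 libraries was analysed, grouped by title. Per the labels, total RNA was made into stranded low-input libraries, and the submitters' processing notes name Trim Galore, HISAT2, featureCounts, DESeq2 and the mm9 build. Versions, the annotation and the use of strand in counting are not given in the sources used here. Each deposited value is a signal for 1 gene, the reads that the authors divided by 1 size factor per library, and 100% of values in every library came out as whole reads within a tolerance of 0.01. Amplified copies of a molecule could not be told from separate molecules, so limits from counts cover counting error only.

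The 10 regulators and all lists were chosen with earlier results of these data known. Genes with a mean of at least 10 (11754) were tested with limma 3.58.1 (R 4.3.3) on log2(value + 1), with trend, two-sided, with Benjamini-Hochberg adjustment over all of them at 0.05. The pseudocount of this scale shrinks changes of weak genes, while 1 library near 0 weighs more in its means than in a ratio of means. Library measures were compared with exact permutation tests over 70 arrangements. Named beside the regulators were the genes of each list past the threshold or else its most abundant member, and others are marked in the text. Of 153 listed genes 152 were found, 14 under an older symbol through RefSeq synonyms. Positions are from GENCODE M21 (GRCm38), since the table has none.

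As alternatives, the pseudocount was set to 0.1 and to 10, the filter was dropped or raised to a mean of 50, other scalings were used, the replicate number entered as a block or the kind of library as a term, the trend was dropped, libraries were weighted, each was left out in turn, and the recovered reads were given to edgeR 4.0.16 (quasi-likelihood, TMM; 1158 genes called) and DESeq2 1.42.0 (1738 genes called). A scaling without marker and structural RNAs, and leaving out the shallowest library of each group together, came after the data had been seen. The tests were tried on simulated data. Tables and figures were made in Python 3.11.15.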

Additional observations from a re-analysis of the deposited data

Results flagged for a closer look

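Of 26 groups of 4 values examined, 3 held a library whose gap to the nearest other value was too large a part of the range of its group by Dixon's criterion, which chance gives in about 1 of 20 groups. The Nrf1 level of mfn2-/- 4 was 438 normalized reads, against 105 to 117 in the other mfn2-/- libraries. The Gabpa level of wild-type 1 was 86.4 normalized reads, while the remaining wild-type libraries held 354 to 407. Mitochondrial rRNA took 1.48% of the total in mfn2-/- 4, against 2.30% to 2.40% in the other mfn2-/- libraries. These are the 2 shallowest libraries, and the part of depth in these values was not tested.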

How the results depend on the processing

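The number of regulators past the threshold was 1 in the reported fit, 2 with upper-quartile scaling, where Tfam joined Pprc1 with a log2 change of 1.34, and 0 without the trend, and it ran from 0 to 1 with 1 library left out. Genes called in the 7 related lists numbered 3, against 6 with a pseudocount of 10, 5 with a mean of at least 50, 5 with equal totals, 9 with upper-quartile scaling, 5 with quantile normalization, 6 with the kind of library as a term, 1 without the trend, 18 with library weights, 9 with DESeq2 and 8 without wild-type 1 and mfn2-/- 4 together, and 1 to 4 with 1 library left out. Over all genes 1217 were called (469 higher, 748 lower), 633 without the trend (113 higher), 3037 with library weights (1398 higher, 1639 lower), and 670 to 1342 with 1 library left out (235 to 488 higher, 435 to 854 lower), the lowest without wild-type 3. Upper-quartile scaling called 844 higher and 632 lower, with a median log2 change over all genes of 0.04 in place of -0.16. The mitochondrial rRNA share differed by -2.67 percentage points, and by -3.05 to -2.26 with 1 library left out. Without mfn2-/- 4 it was -2.45 with an exact permutation p of 0.0571. The log2 change of Polrmt, -0.17, turned to 0.033 with upper-quartile scaling, to 0.28 with quantile normalization and to 0.18 without wild-type 4, within a range of -0.46 to 0.18 with 1 library left out, and no other tested regulator or rRNA changed sign in the alternatives over both kinds of library. Within the kinds, Ppargc1a turned to 0.11 with Y-linked reads and Polrmt to 0.26 without. The cause of these shifts was not tested. Same-numbered libraries did not deviate together from their group means (correlations of -0.11 to 0.04). These correlations cannot exclude a pairing by number, since same-numbered libraries differ in the presence of Y-linked reads. With the replicate number as a block 1043 genes were called (434 higher, 609 lower), 980 of them among the 1217, Rnr2 passed (limma adjusted p = 0.0481) and Crtc2 was lost. Esrra, Tfb1m and Tfb2m each had at least 1 library at 0 reads, and the part of depth in these zeros was not tested.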
